A study of Sus scrofa with 16 samples.

Results

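Skeletal muscle was set against uterine endothelium in the same 4 gilts, young female pigs of about 165 days, and the genes described are the rows of a pig oligonucleotide array that carry a gene symbol. These are 178 rows for 175 genes, of 20736 rows in all, and ASIP has 4 of them. The other 20558 rows were tested with them but are unnamed here. The muscle was longissimus, a back muscle, and "uterine endothelium" is the name the labels give to the second tissue. No group was treated, and muscle, uterine endothelium, liver and brain stem of each animal were hybridised as whole-tissue RNA in 1 loop of 4 arrays with 2 dyes, 16 arrays in all. Each tissue carried Cy3 once and Cy5 once in each animal. In animals 1, 3 and 4 muscle and uterine endothelium shared an array. In animal 2 they did not, and their difference comes only through liver and through brain stem. The loop and the animal cannot be told apart.

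Skeletal muscle is built of fused fibres whose identity is set by basic helix-loop-helix factors such as MYOD1, and which draw on glycolysis and on mitochondrial respiration for contraction. Endothelium is the inner layer of vessels and is rich in caveolae, the small membrane pits formed by caveolin proteins. The lining of the uterus also holds secretory epithelium, stroma and immune cells, and it answers to steroid and peptide hormones.

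Every value below is a log2 ratio as the authors deposited it or a sum of such ratios. A tissue value is relative to the mean of the animal's 4 tissues, and a difference is muscle minus uterine endothelium, so a positive one is higher in muscle. The log base is inferred from the range of the values, and the sign rests on reading each ratio as Cy5 over Cy3, which is likely but not stated in the sources used here. MYOD1 and liver genes had a part in choosing that reading, so their direction is not independent evidence. The opposite reading would swap higher and lower throughout. A row was called when its adjusted p was under 0.05 in limma, a linear model fitted to all rows with the animal as a block. Benjamini-Hochberg adjustment was over all 20736 rows. The SE and p of a difference use a spread pooled over all 4 tissues, liver and brain stem included. They do not measure the spread of the difference between animals, which the SD gives.

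Of the 178 rows with a symbol, 57 were called, which is 32.0%, against 26.4% of all rows. Higher in muscle were 39 of them (21.9%), against 13.3% of all rows. Lower in muscle were 18 (10.1%), against 13.1% of all rows. The few large differences lay more on the lower side: 4 rows with a symbol were higher by at least 1 (2.25%, against 2.32% of all rows), and 8 were lower by at least 1 (4.49%, against 2.98% of all rows). The median difference was 0.06 over the rows with a symbol and -0.01 over all rows. Called rows on the higher side had a median difference of 0.39, and those on the lower side a median of -0.94. In 55 of the 57 called rows the difference had 1 sign in all 4 animals, against 96% of all called rows. This also held for 36 of the 121 rows that were not called, and for 45.7% of all rows. Of the 57 called rows, 24 were called in each tested setting that held them, and the others lost the call in at least 1, most often when an animal was left out. The median SE of a difference was 0.0874 over rows with a symbol and 0.0913 over all rows.

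**Figure D1:**
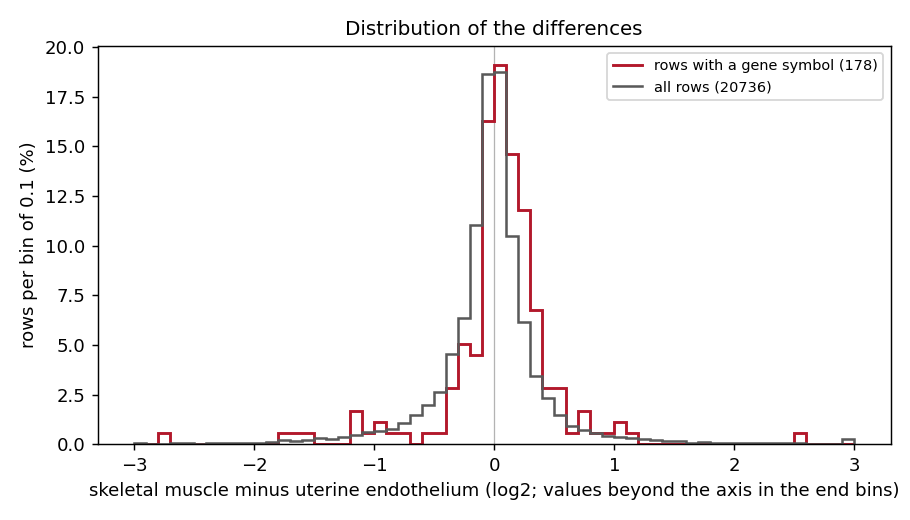
The share of rows by the size of the difference, muscle minus uterine endothelium on the log2 scale, for rows with a symbol and for all rows. Both centre near 0, with medians of 0.06 and -0.01.

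Few marker genes of the labelled tissues carry a symbol. Of 28 skeletal muscle genes listed, 3 carry a symbol on the array, and 2 of these were higher in muscle, with a median difference of 0.26 over the 3. Of 16 endothelial genes only CAV1 was named, and it was lower in muscle. Contractile and metabolic markers of muscle other than MYH7, and endothelial markers such as PECAM1 and VWF, are not among the named rows. The labels were therefore not tested here. In whole tissue, fewer cells of a type and less RNA per cell cannot be told apart.

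MYOD1, the factor that commits cells to the muscle lineage, was higher in muscle. Its tissue values were 0.72, 1.01, 0.87 and 0.82 in muscle of animals 1 to 4, against -0.18, -0.33, -0.21 and -0.21 in uterine endothelium. The groups did not overlap, and liver (-0.26) and brain stem (-0.36) stood near uterine endothelium. The mean difference was 1.09 (SE 0.0677, limma adjusted p = 1.8e-06), with an SD of 0.183 over 4 animals, and this was the smallest adjusted p among the rows with a symbol. LMCD1, a LIM-domain protein abundant in striated muscle, had -0.01, 0.23, 0.19 and 0.37 in muscle, against 0.00, -0.14, -0.04 and -0.08 in uterine endothelium. Animals 2, 3 and 4 were higher in muscle and animal 1 lay at 0, and the mean difference of 0.26 passed the test (SE 0.0828, adjusted p = 0.038). Without animal 2, 3 or 4 it did not, at 0.22 (adjusted p = 0.20), 0.27 (0.14) and 0.20 (0.15), nor did it in a fit to the 4 animal differences alone (adjusted p = 0.11). The row before LMCD1 in the table is that of S100A11, whose difference was -2.73. The part of such neighbouring rows was not tested for single genes.

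The slow myosin heavy chain gene MYH7 did not follow MYOD1. Its values were -0.10, -0.15, 0.04 and 0.04 in muscle, against -0.05, 0.29, -0.09 and -0.15 in uterine endothelium, with both groups around 0. The difference of -0.04 was within the spread between animals (SD 0.284, n = 4), and it was not called (adjusted p = 0.79). MYOCD, the myocardin coactivator of cardiac and smooth muscle genes, had a difference of 0.13 (adjusted p = 0.36). OXTR, the oxytocin receptor through which smooth muscle of the uterus contracts and the 1 measured gene of the smooth muscle list, was higher in skeletal muscle. It had 0.24, 0.42, 0.43 and 0.30 in muscle, against -0.01, -0.23, -0.21 and -0.26 in uterine endothelium, a difference of 0.53 (SE 0.083, adjusted p = 0.00083).

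The list of energy and mitochondrial genes, like the other lists, was chosen with earlier results of these data known. Its 4 measured genes were all called, 3 higher and 1 lower in muscle, with a median difference of 0.80. For this and every other list, the shares over all rows were 13.3% called higher and 13.1% called lower. No list was tested as a group. Of mitochondrial genes off the list given below, MAOA was called lower and SMCP higher. PGK2 had the largest difference on the higher side. It encodes the phosphoglycerate kinase of male germ cells, an isozyme of the glycolytic enzyme PGK1, and whether its probe also binds PGK1 transcripts could not be checked here. PGK2 stood at 2.55, 1.78, 2.50 and 2.41 in muscle, against -0.08, 0.03, -0.09 and -0.62 in uterine endothelium. The groups lay far apart in every animal, with brain stem lowest of all at -1.91. The difference was 2.50 (SD 0.538, n = 4; SE 0.234, adjusted p = 2.6e-05), with 1.75 as the smallest value, in animal 2.

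ATP5G1, a gene for the proton-carrying c subunit of mitochondrial ATP synthase, was higher in muscle than in uterine endothelium but highest in brain stem (1.15). Its values were -0.09, 0.56, 0.86 and 0.25 in muscle, against -0.72, -0.58, -0.68 and -0.73 in uterine endothelium. The muscle values varied more than those of uterine endothelium (SD 0.405 and 0.067, n = 4). The difference was 1.07 (SE 0.289, adjusted p = 0.018). It did not pass the test without animal 2 (1.05, adjusted p = 0.099) or without animal 4 (1.10, adjusted p = 0.071). Within an animal the routes around the loop lay far apart. The shared arrays of animals 1, 3 and 4 gave 0.14, 1.75 and 1.28, and the other arrays together gave 2.12, 0.88 and 0.08. ACADS, the mitochondrial short-chain acyl-CoA dehydrogenase of fatty acid oxidation, had 0.27, 0.19, 0.38 and -0.14 in muscle, against -0.41, -0.52, -0.29 and -0.18 in uterine endothelium. Animals 1, 2 and 3 differed by 0.67 to 0.71, whereas animal 4 differed by 0.04. The mean was 0.53 (SE 0.128, adjusted p = 0.011). Within an animal the routes around the loop lay further apart than this. The shared arrays of animals 1, 3 and 4 gave 0.98, 0.51 and 0.09, and the other arrays together gave -0.19, 1.17 and -0.13. Animal 2 had 0.29 through liver and 1.13 through brain stem. The call was lost without animal 1 (0.47, adjusted p = 0.062), animal 2 (0.47, 0.087) or animal 3 (0.48, 0.055). The ACADS row follows that of MYOD1 (1.09). GOT1, the cytosolic aspartate aminotransferase, was higher in muscle by 0.49 (SE 0.125, adjusted p = 0.013). Its call was lost without animal 1 (0.52, adjusted p = 0.052) or animal 4 (0.41, 0.084). The GOT1 row follows that of CSN1S1 (0.89).

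TSPO, a cholesterol-binding protein of the outer mitochondrial membrane, went the other way. It had -1.18, -0.93, -0.73 and -1.10 in muscle, against 1.80, 0.08, 0.57 and 0.12 in uterine endothelium. Muscle was alike in all animals, and uterine endothelium of animal 1 stood far above the other 3. The difference was -1.63 (SD 0.91, n = 4; SE 0.431, adjusted p = 0.016). Without animal 2 it was -1.83 (adjusted p = 0.050), and without animal 3 it was -1.74 (adjusted p = 0.073), neither of them called. TSPO was highest in liver, at 1.43.

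**Figure D2:**
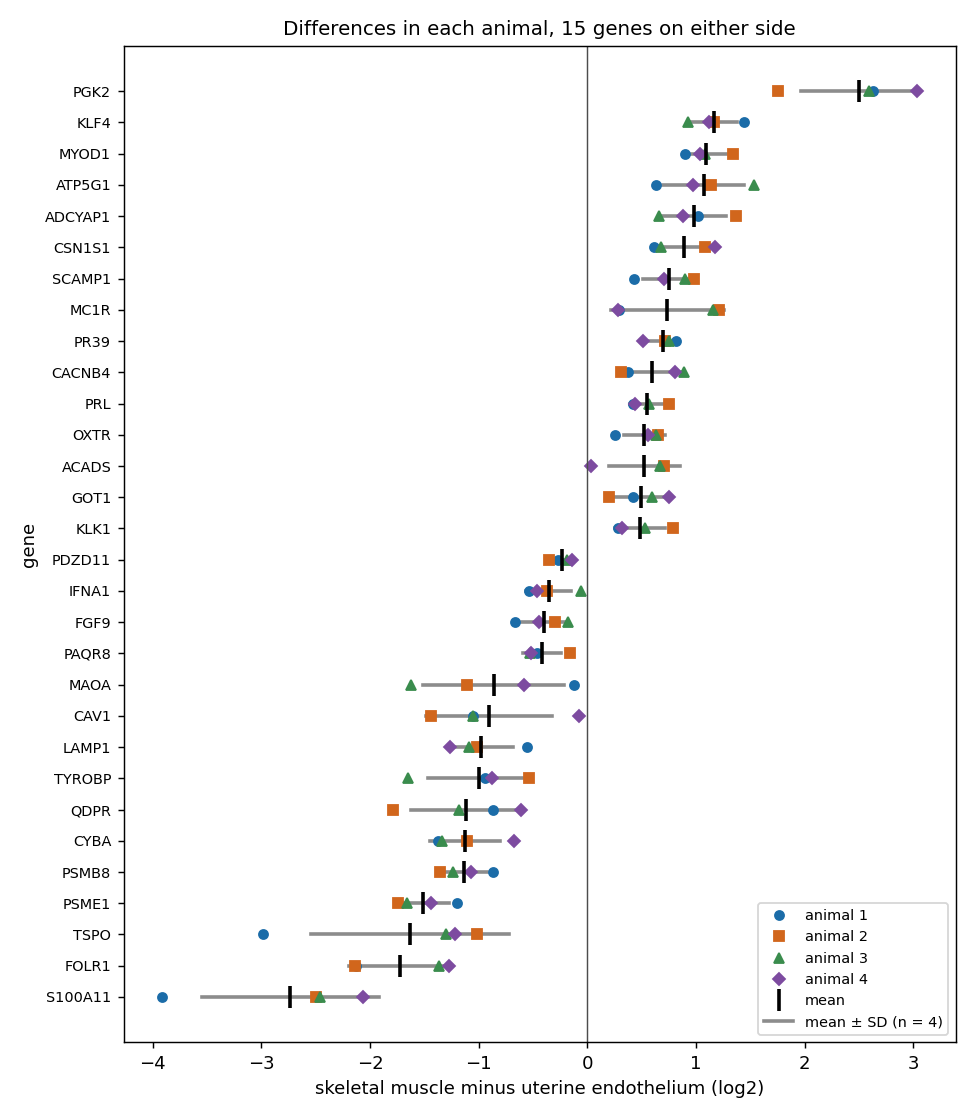
The difference, muscle minus uterine endothelium in log2 units, of the 15 largest called genes on each side with 1 sign in all animals. Points are the 4 animals, and bars give the mean ± SD. PGK2 (2.50) and S100A11 (-2.73) lie at the ends.

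Of 3 measured immediate early and growth factor genes, 1 was higher, 1 lower and 1 not called, with a median difference of 0.14. KLF4, a zinc-finger transcription factor of epithelia and vessel walls, was higher in muscle. It had 1.16, 0.94, 1.00 and 0.91 in muscle, against -0.28, -0.23, 0.07 and -0.21 in uterine endothelium, with no overlap. The difference was 1.17 (SE 0.0928, adjusted p = 7.7e-06), and liver (-0.40) and brain stem (-0.45) were lower than both. FGF9, a secreted fibroblast growth factor, was lower in muscle by 0.40 on the log2 scale, at -0.10, -0.12, 0.01 and -0.03 in muscle, against 0.57, 0.18, 0.19 and 0.41 in uterine endothelium. Its call (adjusted p = 0.010) was lost without animal 4 (-0.38, adjusted p = 0.060).

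JUN, a subunit of the AP-1 transcription factor, was well above liver (-1.05) and brain stem (-0.85) in both tissues. It had 1.22, 1.18, 0.52 and 1.18 in muscle, against 0.32, 0.39, 1.16 and 1.64 in uterine endothelium. Muscle was the higher tissue in animals 1 and 2 and the lower in animals 3 and 4, with differences of 0.89, 0.78, -0.64 and -0.46. The mean of 0.14 was within that spread (SD 0.807, n = 4), and it was not called (adjusted p = 0.87). RPN2, an oligosaccharyltransferase subunit whose row follows that of JUN, split in the same way at 0.25, 0.16, -0.20 and -0.17. ITGB1, the integrin beta 1 chain, had 0.85, 0.23, -0.84 and -0.20. RPN2 and ITGB1 were picked after their values were seen. Of the 178 rows with a symbol, 31 had 2 animals on each side of 0. The share of all rows that did so was not counted.

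Of 5 measured hormone receptors and ligands on the list, 3 were higher in muscle and 2 were not called, with a median difference of 0.22. ADCYAP1, the neuropeptide PACAP, had 0.61, 0.96, 0.22 and 0.60 in muscle, against -0.42, -0.41, -0.43 and -0.28 in uterine endothelium. Uterine endothelium was alike in all animals, and every muscle value lay above it, with a difference of 0.98 (SE 0.145, adjusted p = 0.00055). OXTR is given above. PRLR, the prolactin receptor, was higher by 0.22 (adjusted p = 0.038), a call lost whichever animal was left out, with 0.20 to 0.26, with the 4 animal differences alone (adjusted p = 0.060), with a dye term (0.059) and with arrays scaled (0.073). ESR2, an oestrogen receptor, and FSHR, the follicle-stimulating hormone receptor, had differences of 0.13 (adjusted p = 0.073) and 0.07 (adjusted p = 0.57). ESR2 was called with no replicate block (adjusted p = 0.019).

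Outside the list, PRL, the pituitary hormone prolactin, stood at 0.23, 0.51, 0.46 and 0.18 in muscle, against -0.19, -0.24, -0.10 and -0.26 in uterine endothelium, a difference of 0.55 (SE 0.118, adjusted p = 0.0058). The vasopressin receptor AVPR2 (0.26, adjusted p = 0.020) and the somatostatin receptor SSTR5 (0.17, adjusted p = 0.018) were higher in muscle too, both calls being lost without animal 2, 3 or 4, at 0.22 to 0.28 for AVPR2 and 0.15 to 0.17 for SSTR5. With the 4 differences alone SSTR5 was not called (adjusted p = 0.10). PAQR8, a membrane progestin receptor, was lower in muscle, at -0.13, -0.04, -0.24 and -0.17, against 0.33, 0.12, 0.28 and 0.35 in uterine endothelium, a difference of -0.42 (SE 0.0704, adjusted p = 0.0013). INHA, the inhibin alpha chain, missed the threshold at an adjusted p of 0.0503. It had 0.30, 0.48, 1.26 and 0.78 in muscle, against -0.33, -0.18, -0.24 and 0.46 in uterine endothelium, a difference of 0.77. VNN1, the pantetheinase vanin, missed it by as little, with a difference of 0.50 (adjusted p = 0.0501), and the serotonin receptor HTR1F had 0.25 (adjusted p = 0.0519). INHA and VNN1 were called in 7 of the other settings each, and HTR1F in 4.

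MC1R, POMC, DCT, ASIP and OCA2 belong to melanocortin signalling or pigmentation and were put side by side after their values were seen, on no fixed list and with no test of the group. MC1R, the melanocortin receptor of pigment cells, had 0.24, 0.63, 0.62 and 0.27 in muscle, against -0.06, -0.58, -0.54 and -0.01 in uterine endothelium. Animals 2 and 3 differed by 1.21 and 1.16, whereas animals 1 and 4 differed by 0.29 and 0.28. The mean was 0.74 (SE 0.171, adjusted p = 0.0084), a call lost without animal 2 (adjusted p = 0.078) or animal 3 (adjusted p = 0.088) and in a fit to the 4 animal differences alone (adjusted p = 0.057). On the indirect routes of animals 1, 3 and 4 alone MC1R had a mean of -0.25. POMC, the precursor of the receptor's ligands, was higher by 0.31 (adjusted p = 0.026). DCT, an enzyme of melanin synthesis, was higher by 0.15 (adjusted p = 0.043). ASIP, the antagonist of MC1R, gave differences of 0.24 (adjusted p = 0.030), 0.21 (adjusted p = 0.031), 0.13 (adjusted p = 0.22) and 0.01 (adjusted p = 0.95) on its 4 probes, so 2 were called and 2 were not. Without animal 2 the calls for POMC (0.19, adjusted p = 0.17), DCT (0.09, 0.26) and both ASIP probes (0.18, 0.15 and 0.21, 0.10) were lost, and each was also lost without animal 3, at 0.35, 0.16, 0.26 and 0.15. The calls for DCT (0.18) and the ASIP probes (0.23 and 0.22) were lost without animal 1 too, and those for POMC (0.32), DCT (0.17) and 1 ASIP probe (0.24) without animal 4. With the 4 differences alone POMC (adjusted p = 0.11), DCT (0.18) and both ASIP probes (0.088 and 0.097) were not called, nor was DCT with centring by the mode (0.057). OCA2, a melanosome transporter, had a difference of -0.01 (adjusted p = 0.95).

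The next genes were chosen from the called rows after their values were seen, with no fixed list. CSN1S1, the milk protein alpha-S1 casein, had 0.43, 0.55, 0.31 and 0.41 in muscle, against -0.18, -0.53, -0.36 and -0.76 in uterine endothelium, a difference of 0.89 (SE 0.138, adjusted p = 0.00075). Its row follows that of MAOA, which had a difference of -0.86. PRM2, a protamine of sperm chromatin, was higher by 0.44 (adjusted p = 0.0083), and its row follows that of CACNB4 (0.59). SMCP, a protein of sperm mitochondria, was higher by 0.25 (adjusted p = 0.0089). MYOC, the gene of myocilin, was higher by 0.34 (adjusted p = 0.0032) and KLK1, tissue kallikrein, by 0.48 (adjusted p = 0.0082). Without animal 2 or animal 3 the call was lost for SMCP (0.23 and 0.23) and for KLK1 (0.38 and 0.46). The related PRM1 had 0.31 (adjusted p = 0.085) and the milk protein LALBA 0.06 (adjusted p = 0.79), and neither was called. PRM1 was called in 4 other settings, with 0.29 to 0.37. Of the 57 called rows, 9 followed a row with an absolute difference of at least 0.5, as did 18 of the 121 rows not called and 15.7% of all rows. Of those 9, 6 had the sign of the row before. They were ACADS (after MYOD1), GOT1 (after CSN1S1), MYOC (after ACADS), B3GNT5 (after SCAMP1), PRM2 and PDCD1LG2. LMCD1, CSN1S1 and SLC22A2 (after IFN-DELTA-1) had the opposite sign.

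**Figure D3:**
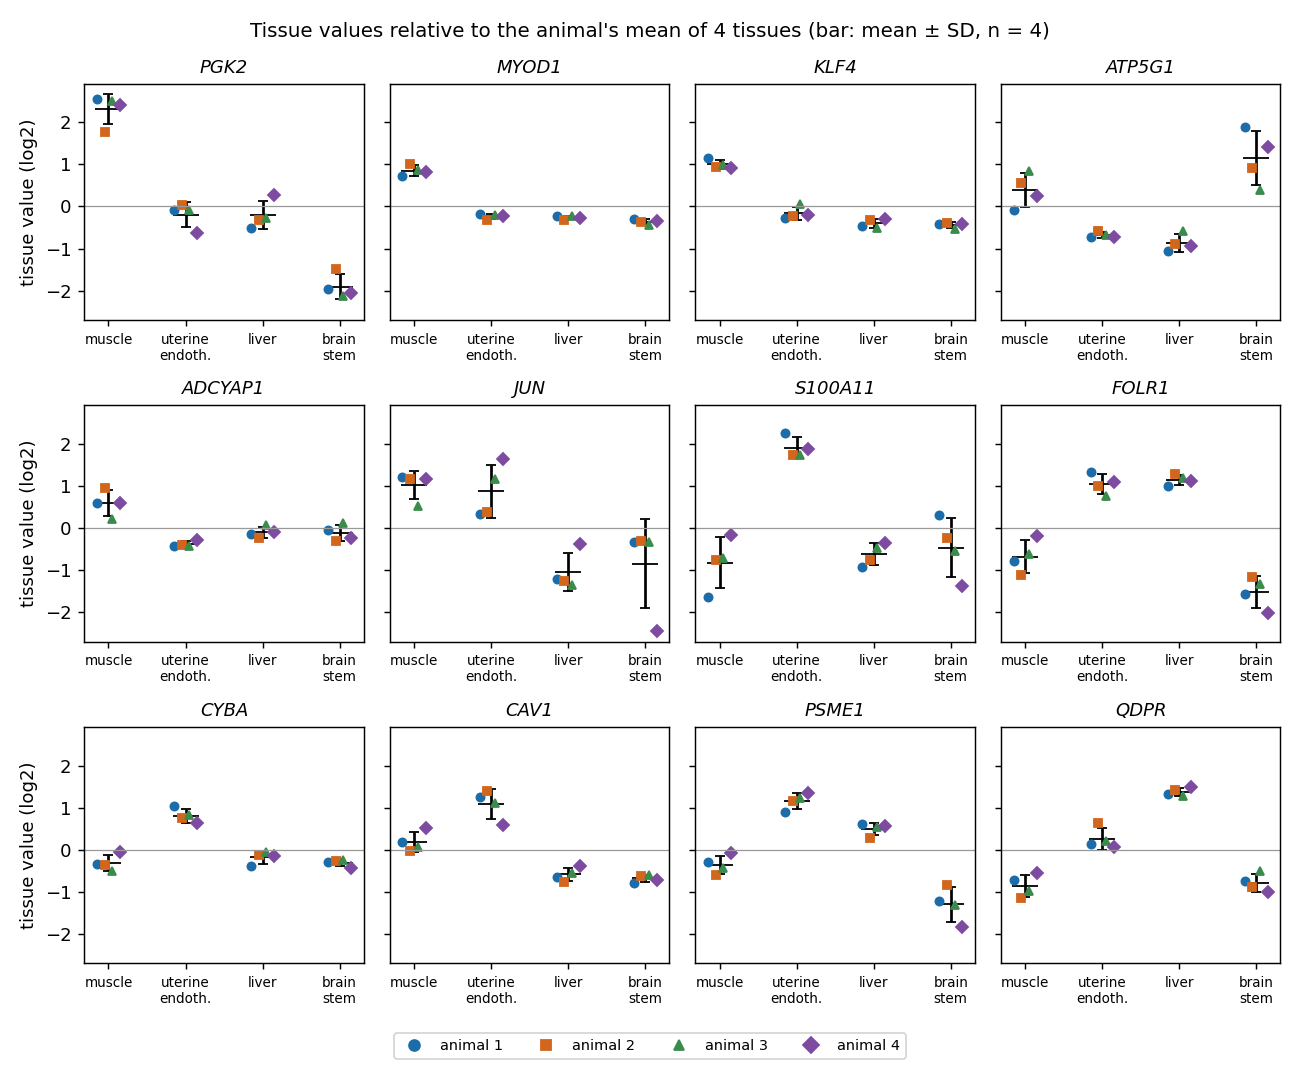
Tissue values in log2 units relative to the animal's mean of 4 tissues, for 12 genes in muscle, uterine endothelium, liver and brain stem. Points are animals. JUN is high in both muscle and uterine endothelium, and PGK2 in muscle.

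Of 3 measured genes of G protein and calcium signalling, 1 was higher, 1 lower and 1 not called, with a median of -0.56. CACNB4, a beta subunit of voltage-gated calcium channels, had 0.29, 0.20, 0.62 and 0.45 in muscle, against -0.08, -0.11, -0.27 and -0.36 in uterine endothelium, a difference of 0.59 (SE 0.104, adjusted p = 0.0016). Other called genes, on no list, follow. SCAMP1, a carrier membrane protein of vesicle recycling, was higher by 0.75 (SE 0.103, adjusted p = 0.00032), at 0.31, 0.53, 0.63 and 0.42 in muscle, against -0.12, -0.45, -0.27 and -0.30 in uterine endothelium. The potassium channels KCNN4 (0.25, adjusted p = 0.014) and KCNA5 (0.23, adjusted p = 0.022) and the organic cation transporter SLC22A2 (0.34, adjusted p = 0.022) were higher too. CDKN2B, an inhibitor of cyclin-dependent kinases, was higher by 0.45 (adjusted p = 0.0017). SHAS2, so named on the array, was higher by 0.40 (adjusted p = 0.0041), and B3GNT5, a glycosyltransferase, by 0.20 (adjusted p = 0.025). Calls lost on leaving out an animal were those of KCNN4 (0.23 to 0.26 without animal 2, 3 or 4), KCNA5 (0.19 to 0.25 without animal 1, 2 or 3), SLC22A2 (0.33 without animal 1, 0.31 without animal 3), SHAS2 (0.34 without animal 3) and B3GNT5 (0.16 to 0.23 without animal 1, 2 or 3). With the 4 differences alone KCNA5 (adjusted p = 0.073) and B3GNT5 (0.097) were not called.

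S100A11, a calcium-binding S100 protein, had the largest difference of all rows with a symbol. It stood at -1.65, -0.76, -0.72 and -0.18 in muscle, against 2.27, 1.73, 1.74 and 1.89 in uterine endothelium. Uterine endothelium was far above muscle in every animal, and liver (-0.62) and brain stem (-0.46) were near muscle. The difference was -2.73 (SD 0.813, n = 4; SE 0.363, adjusted p = 0.00028), from -3.92 in animal 1 to -2.06 in animal 4. GNAS, the stimulatory G protein alpha subunit, had differences of 0.35, -0.88, -1.14 and -0.58. Its mean of -0.56 was not called (adjusted p = 0.15), though it was without animal 1 (-0.87, adjusted p = 0.048).

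FOLR1, a folate receptor of secretory epithelia, was lower in muscle. It had -0.79, -1.13, -0.62 and -0.18 in muscle, against 1.34, 1.01, 0.75 and 1.09 in uterine endothelium, a difference of -1.73 (SE 0.223, adjusted p = 0.00023). The groups did not overlap, and FOLR1 was also high in liver (1.15) and lowest in brain stem (-1.52). It is 1 of 2 measured genes of uterine epithelium. The other, SAL1, a salivary lipocalin, had a difference of -0.08 (adjusted p = 0.69), and the median of both was -0.90. CAV1, the main protein of caveolae, had 0.19, -0.03, 0.06 and 0.51 in muscle, against 1.24, 1.41, 1.11 and 0.59 in uterine endothelium. Animals 1, 2 and 3 differed by -1.44 to -1.05, and animal 4 by -0.08. The mean was -0.90 (SD 0.58, n = 4; SE 0.172, adjusted p = 0.0027), and CAV1 was lower still in liver (-0.59) and brain stem (-0.68). COL10A1, a collagen and the 1 measured gene of the stroma list, had 0.05 (adjusted p = 0.74), and PLIN1, the lipid droplet protein of adipocytes, had 0.12 (adjusted p = 0.16), though it was called in the fit with a dye term (0.15, adjusted p = 0.044). No blood gene of the list was named.

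Both measured genes of the immune proteasome and antigen presentation list, which holds 12 genes, were lower in muscle, with a median of -1.32. PSME1 encodes the alpha chain of the PA28 proteasome activator, and PSMB8 an interferon-induced catalytic subunit of the immunoproteasome. PSME1 had -0.30, -0.59, -0.44 and -0.09 in muscle, against 0.90, 1.15, 1.23 and 1.35 in uterine endothelium, a difference of -1.51 (SD 0.243, n = 4; SE 0.194, adjusted p = 0.00022). PSMB8 had -0.36, -0.46, -0.56 and -0.17 in muscle, against 0.51, 0.90, 0.68 and 0.91 in uterine endothelium, a difference of -1.14 (SD 0.21, n = 4; SE 0.17, adjusted p = 0.0006). For both genes uterine endothelium was the highest of the 4 tissues and no muscle value reached it.

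Of 5 measured genes on the leukocyte list, 2 were higher, 2 lower and 1 not called, with a median difference of 0.18. ITGA2B, 1 of the 2 higher, is a platelet gene. CYBA, a subunit of the phagocyte NADPH oxidase, was lower in muscle, at -0.34, -0.36, -0.51 and -0.04, against 1.03, 0.75, 0.83 and 0.63 in uterine endothelium. The difference was -1.12 (SE 0.118, adjusted p = 5.6e-05), with liver (-0.18) and brain stem (-0.31) close to muscle. PDCD1LG2, the PD-1 ligand 2, was lower by a difference of -0.23 (adjusted p = 0.037), and the row before it had -1.17. That call was lost whichever animal was left out, at -0.29 to -0.14, and with the 4 animal differences alone (adjusted p = 0.13). Higher in muscle were CCR9, a chemokine receptor (0.40, adjusted p = 0.013), and ITGA2B, the platelet integrin alpha chain (0.39, adjusted p = 0.00053), while CD4, the T-helper co-receptor, had 0.18 (adjusted p = 0.12). The call of CCR9 was lost without animal 2 (0.30, adjusted p = 0.078) or animal 4 (0.37, 0.074). TYROBP, the signalling adaptor of myeloid and natural killer cells, is not on the list. It had -0.55, -0.44, -0.76 and -0.25 in muscle, against 0.39, 0.10, 0.89 and 0.63 in uterine endothelium, a difference of -1.0 (SE 0.246, adjusted p = 0.011), a call lost without animal 1 (-1.02, adjusted p = 0.055) or animal 3 (-0.79, 0.10). The part of these leukocyte genes in the lower genes of muscle was not tested.

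Of 8 measured cytokines, interferons and their receptors, 3 were higher, 1 lower and 4 not called, with a median of -0.08. CCR9, IL12RB2, a chain of the interleukin 12 receptor (0.34, adjusted p = 0.0042), and IFNB1, interferon beta (0.23, adjusted p = 0.011), were higher. IFNA1, an interferon alpha of a family of close copies that the probe may not tell apart, had -0.47, -0.50, -0.42 and -0.50 in muscle, against 0.07, -0.13, -0.37 and -0.04 in uterine endothelium, and 0.91 in brain stem. Its difference of -0.36 had an adjusted p of 0.024. Without animal 1, 2 or 4 it was not called (-0.35 to -0.30), nor was IFNB1 without animal 2, 3 or 4 (0.20 to 0.23). With the 4 animal differences alone neither IFNA1 (adjusted p = 0.053) nor IFNB1 (0.058) was called. IFN-DELTA-1 had -0.77 (adjusted p = 0.065), LTA -0.33 (0.13), IL1A -0.14 (0.27) and IL17A -0.02 (0.90). IFN-DELTA-1 was called in 4 other settings, among them the 4 differences alone (adjusted p = 0.047), with -0.88 to -0.77. Among cytokines off the list, the skin chemokine CCL27 (0.38, adjusted p = 0.011) and the CD30 ligand TNFSF8 (0.21, adjusted p = 0.025) were higher, as was the lipid-presenting molecule CD1.1 (0.24, adjusted p = 0.019). Of these, CCL27 was not called without animal 2 (0.30) or animal 3 (0.38), TNFSF8 without animal 1, 2 or 4 (0.19 to 0.21) and CD1.1 without animal 1, 2 or 4 (0.21 to 0.25). None of the 3 was called with the 4 differences alone (adjusted p = 0.050, 0.065 and 0.051).

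Of 8 measured innate defence genes, 1 was higher, 1 lower (CYBA) and 6 not called, with a median of -0.01. PR39, a proline-rich cathelicidin peptide of pig neutrophils, was higher in muscle in every animal. It had 0.64, 0.54, 0.56 and 0.39 in muscle, against -0.18, -0.17, -0.19 and -0.12 in uterine endothelium, a difference of 0.70 (SD 0.133, n = 4; SE 0.0652, adjusted p = 2.5e-05). NPG4, a protegrin of the same cathelicidin family and not on the list, had -0.17 (adjusted p = 0.049), and it was not called when any animal was left out (-0.21 to -0.10) or with the 4 animal differences alone (adjusted p = 0.18), with arrays scaled (0.058) or with the rows of lowest SD left out (0.076). Probes for these close copies may not be specific. The 6 not called were MBL2 (0.41, adjusted p = 0.14), FCN1 (0.09, 0.73), CRP (0.01, 0.98), DEFB1 (-0.02, 0.76), PGLYRP2 (-0.04, 0.81) and TLR10 (-0.29, 0.056). TLR10 was called in 4 other settings, with -0.33 to -0.29, and MBL2 without animal 4 (0.45, adjusted p = 0.034).

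The lower genes also included enzymes and a lysosomal protein. QDPR, which regenerates the cofactor tetrahydrobiopterin, had -0.73, -1.15, -0.97 and -0.55 in muscle, against 0.14, 0.64, 0.21 and 0.06 in uterine endothelium and a mean of 1.38 in liver. The difference was -1.11 (SE 0.163, adjusted p = 0.0005), with -1.79 in animal 2 as the largest. LAMP1, a lysosomal membrane protein, had -0.25, -0.68, -0.28 and -0.34 in muscle, against 0.31, 0.34, 0.81 and 0.92 in uterine endothelium, a difference of -0.98 (SE 0.193, adjusted p = 0.0034). MAOA, the monoamine oxidase of the outer mitochondrial membrane, had -0.16, -0.39, -0.54 and -0.24 in muscle, against -0.03, 0.72, 1.09 and 0.34 in uterine endothelium. Its differences ran from -0.12 in animal 1 to -1.62 in animal 3, and the mean of -0.86 (adjusted p = 0.011) lost its call without animal 2 (-0.78, adjusted p = 0.090) or animal 3 (-0.60, adjusted p = 0.066) and with the 4 animal differences alone (adjusted p = 0.066). CA11, a carbonic anhydrase-related protein (-0.29, adjusted p = 0.030), and PDZD11, a PDZ-domain protein (-0.24, adjusted p = 0.018), were lower by less. CA11 was not called without animal 2, 3 or 4 (-0.32 to -0.16), nor PDZD11 without animal 1, 2 or 3 (-0.25 to -0.20). With the 4 differences alone CA11 (adjusted p = 0.14) and PDZD11 (0.055) were not called.

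The 5 measured liver genes and the 4 measured nervous tissue genes, which belong to tissues outside the pair, were not called. Their median differences were 0.12 and 0.05. The liver genes were MBL2 and CRP, given above, CYP7A1 (0.27, adjusted p = 0.26), PROC (0.12, 0.65) and UOX (-0.12, 0.52). The nervous tissue genes were GLRB (0.15, 0.21), GAD2 (0.12, 0.46), GAD1 (-0.02, 0.86) and CEND1 (-0.04, 0.68).

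Set among all 4 tissues, muscle had the highest mean in 27 of the 39 rows called higher, against 83.8% of all rows called higher. Uterine endothelium had the lowest mean in 18 of them, against 47.2%. Of the 18 rows called lower, uterine endothelium was highest of the 4 tissues in 11 (77.5% of all rows called lower) and muscle was lowest in 8 (39.1%). Among the exceptions, liver was higher than both tissues of the pair for TSPO, FOLR1 and QDPR, and brain stem for ATP5G1. Some rows called higher stood near the animals' mean in muscle. Brain stem was above muscle for POMC (0.36 against 0.09), SSTR5 (0.30 against 0.02) and CCR9 (0.26 against 0.01). Liver was above muscle for PRLR (0.47 against 0.09).

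In animals 1, 3 and 4 the difference could be read along separate routes around the loop, directly on the shared array and indirectly over the other 3 arrays. The value used above weights the direct array by 3 and the indirect route by 1, and a constant dye effect cancels in it. For MYOD1 the routes were close: the direct arrays gave 0.98, 0.99 and 1.08 in animals 1, 3 and 4, and the indirect routes gave 0.67, 1.37 and 0.88. In animal 2 the route through liver gave 1.47 and the route through brain stem 1.21. KLF4 had 1.44, 0.79 and 1.19 directly and 1.48, 1.34 and 0.90 indirectly. PGK2 had 2.38, 2.35 and 3.20 directly and 3.37, 3.33 and 2.53 indirectly. For these 3 genes every route was positive, those of animal 2 included.

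**Figure D4:**
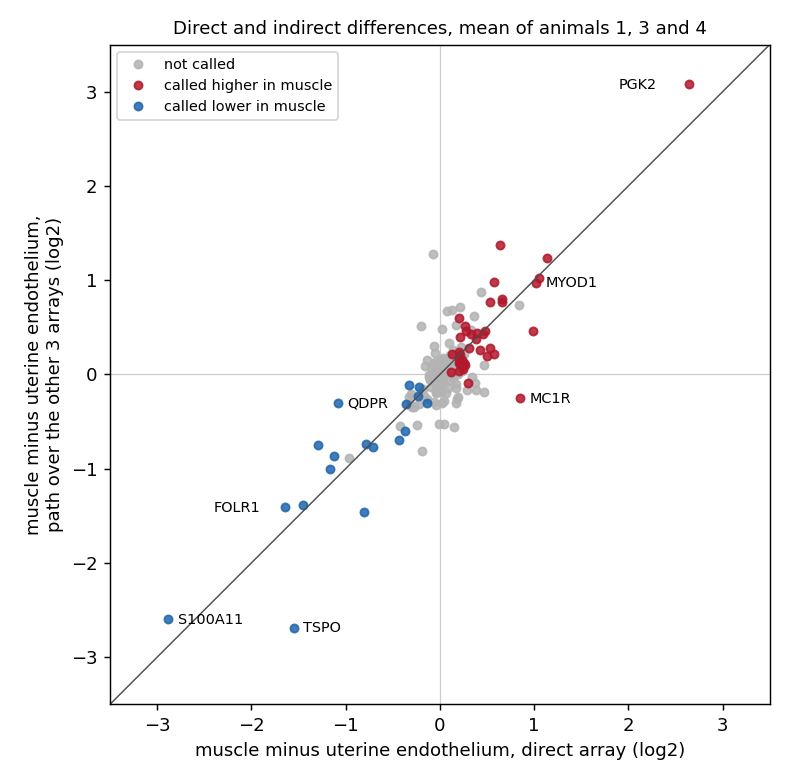
Mean indirect difference against mean direct difference, both in log2 units over animals 1, 3 and 4, for the 178 rows with a symbol. The called rows spread about the diagonal, with a slope through 0 of 0.978, and S100A11 and PGK2 lie at its ends.

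Over the 57 called rows, the direct arrays had 1 sign in all 3 animals in 54, against 93.2% of all called rows. The indirect routes had it in 35, against 72.1% of all called rows. Among those without it, the indirect route of animal 1 was -0.46 for OXTR and -0.34 for PRL. PRM2 had -0.06 indirectly in animal 1 and -0.23 in animal 4. The calls weight the direct array by 3 and the indirect route by 1, so direct agreement is partly built into them. All routes of all 4 animals had 1 sign in 30 of the 57, against 61.4% of all called rows. The median size of the mean direct difference was 0.422 and that of the mean indirect difference 0.424. In single animals the routes differed more, with an SD of direct minus indirect over all rows of 0.544, 0.545 and 0.601 in animals 1, 3 and 4. Across rows with a symbol, direct and indirect differences correlated with r of 0.615, 0.686 and 0.663 in these animals, and both routes of animal 2 with 0.627. These are descriptions across rows that share arrays and RNA, and rows are not replicates. Direct and indirect means had opposite signs in 2 called rows. MC1R had 0.86 directly and -0.25 indirectly, and TNFSF8 had 0.30 directly and -0.09 indirectly.

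The largest lower genes changed size with the route. S100A11 had -4.40, -2.57 and -1.68 on the direct arrays of animals 1, 3 and 4, and -2.46, -2.12 and -3.22 on the indirect routes. Directly it was smallest in animal 4, and indirectly it was largest there. In animals 1 and 3 muscle carried Cy3 and uterine endothelium Cy5 on the shared array, and in animal 4 muscle carried Cy5 and uterine endothelium Cy3. FOLR1 showed the same order, with -2.43, -1.69 and -0.82 directly and -1.20, -0.41 and -2.61 indirectly. QDPR had -1.41, -1.30 and -0.55 directly, and 0.76, -0.85 and -0.82 indirectly, so that the indirect route of animal 1 was positive. TSPO had -2.93, -1.20 and -0.52 directly and -3.14, -1.62 and -3.30 indirectly. All 8 rows lower by at least 1 had their smallest direct difference in animal 4, as did 60.9% of all rows lower by at least 1.

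The sum of the 4 ratios around a loop is 0 where all routes meet, and its distance from 0 is the closure. FOLR1 was the 1 row with a symbol whose closure was called, with 1.23, 0.89, 1.28 and 1.79 in animals 1 to 4 and a mean of 1.30 ± 0.37 (SD, n = 4; limma adjusted p = 0.041). In all, 163 of 20736 rows (0.786%) were called, with 131 without animal 1, 0 without animal 2, 0 without animal 3 and 6 without animal 4. At an unadjusted p under 0.05 there were 4377 rows, or 21.1%, 44 of them with a symbol. S100A11 had a closure of 1.21 ± 0.66 (adjusted p = 0.083). That of MYOD1 was 0.00 ± 0.34, a mean over opposite signs, with -0.31, -0.26, 0.37 and 0.20 in animals 1 to 4. The closure was above 0 in all 8 rows lower by at least 1, in 87.0% of all rows lower by at least 1, and in 59.0% of all rows. The part of dye and labelling in these closures was not tested.

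**Figure D5:**
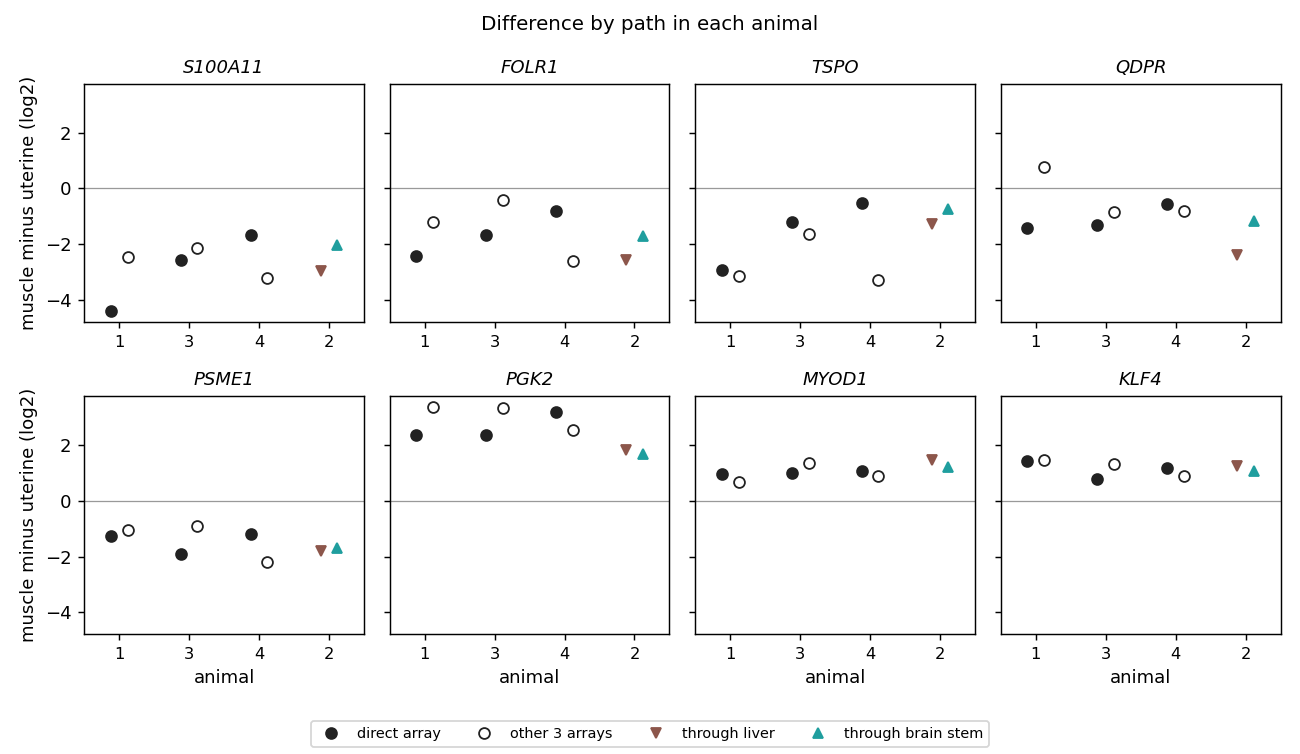
Direct and indirect differences in log2 units for 8 genes in each animal; animal 2 has the routes through liver and through brain stem in place of a direct array. S100A11 and FOLR1 are largest directly in animal 1, and largest indirectly in animal 4.

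The animals were alike in overall spread, while the largest and smallest differences of the called rows with a symbol were spread unevenly over them. The SD of the difference over all rows was 0.575, 0.558, 0.583 and 0.523 in animals 1 to 4. Of the 57 called rows with a symbol, the largest absolute difference was in animal 1 for 10, in animal 2 for 25, in animal 3 for 14 and in animal 4 for 8. Animal 1 had the smallest for 25, animal 2 for 8, animal 3 for 9 and animal 4 for 15. These counts were not set against those of all called rows. Animal 2 is the only animal without a direct array, and the part of this in the counts was not tested. Across rows with a symbol the differences of any 2 animals correlated with r between 0.749 and 0.839, as a description over rows that share arrays.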

How the data were processed

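Per the labels' protocols, TRIzol RNA from 4 tissues of 4 gilts was amplified by T7 transcription and labelled with Cy3 or Cy5. The authors deposited 1 log2 ratio per row and array (the log base is inferred). How the arrays were scanned and normalized is not given in the sources used here. Array medians lay between -0.0108 and 0.0119, array SDs between 0.523 and 1.00, and 0 values were missing. Signal over background is unknown, and the number of animals limits the precision. Control probes were not separated from the rest.

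Each loop of 4 ratios, read as Cy5 over Cy3, was solved by least squares into 4 tissue values. limma 3.58.1 (R 4.3.3) was fitted to these, two-sided, with the animal as a block (9 residual degrees of freedom) and default moderation. The labels tie each loop to 1 animal, which is the source of the pairing. Closure was tested with limma on the 4 loop sums. The code was tested on simulated data.

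The members and lists were chosen with earlier results of these data known. Named by rule were the 15 largest called genes on each side with 1 sign in all animals and all listed genes. The other called rows are named as members, and 9 more (INHA, VNN1, HTR1F, ITGB1, RPN2, MYOCD, OCA2, PRM1, LALBA) were chosen after their values were seen. All 178 symbols matched the Sscrofa11.1 gene table by gene identifier. Alternatives were other models, scaling, centring, filters on rows, leaving out each animal and turning the sign.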

Additional observations from a re-analysis of the deposited data

Results flagged for a closer look

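Among 94 differences of named rows, 5 had 1 animal far from the other 3, with a gap above Dixon's 95% critical value for 4 samples. Chance gives about 1 in 20. TSPO had -2.98 in animal 1, with -1.30 to -1.01 in the others. ACADS had 0.0353 in animal 4, with 0.673 to 0.707 in the others. COL10A1 had -0.211 in animal 1, with 0.109 to 0.161 in the others. FSHR had 0.145 in animal 3, with 0.0401 to 0.0551 in the others. DEFB1 had -0.125 in animal 4, with -0.00251 to 0.0183 in the others. Of these, TSPO and ACADS were called over all 4 animals.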

How the results depend on the processing

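Of the 57 called rows with a symbol, 24 kept their call in each of the 12 tested settings that held them, and 0 changed sign in any of these. Leaving out each animal in turn gave 1655 to 2233 rows called higher, 1448 to 2254 called lower, 18 to 31 rows with a symbol called higher, 11 to 14 called lower and 0 to 131 rows with a called closure. Over all rows, 5475 were called in the fit used, 7479 with no replicate block and 7295 from the array ratios with a dye term, 4240 from the 4 differences alone and 6327 with arrays scaled. The fit without the block uses the same values with more degrees of freedom. With the sign turned, 2715 rows were higher and 2760 lower. Over the 4 animal differences alone, 20 named rows lost their call and 2 gained one. Among called rows TNFSF8 changed sign over the indirect routes of all 4 animals, at -0.00589, where MC1R had 0.11; over the indirect routes of animals 1, 3 and 4 they had -0.09 and -0.25. The other changes of sign were in rows that were not called. With a dye term and no replicate block, MYH7 had 0.00898, ITGB1 -0.0597, JUN -0.137 and RPN2 -0.0474. With arrays scaled, PROC had -0.00202 and CRP -0.160, and with centring by the mode ITGB1 had -0.00117. Leaving out each animal gave ranges of -0.122 to 0.0886 for MYH7, -0.273 to 0.291 for ITGB1, -0.107 to 0.405 for JUN, -0.0689 to 0.0804 for RPN2, -0.0865 to 0.135 for CRP, -0.172 to 0.0466 for SAL1, -0.00776 to 0.0347 for 1 ASIP probe, -0.0918 to 0.0597 for PGLYRP2, -0.0572 to 0.0167 for GAD1, -0.0915 to 0.0599 for IL17A, -0.0133 to 0.161 for LALBA, -0.0400 to 0.0318 for OCA2, -0.0233 to 0.223 for FCN1 and -0.0370 to 0.0109 for DEFB1. The cause was not tested. No signal over background was available, so dim and bright spots were weighted alike.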
